A study of Mus musculus with 7 samples.

Results

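The genes described here encode carriers for sugars, monocarboxylates and organic ions. They are the members of the solute carrier families Slc2a, Slc5a, Slc16a, Slc22a, Slc27a, Slc29a and Slco whose symbols end in a plain number, or, for Slco, all symbols with that start. Slc2a1, Slc5a7, Slc16a1, Slc22a8, Slco1c1 and Slco1a4 were left out by the rule. This gave 81 of the 32531 genes in the count files: 11 of Slc2a, 10 of Slc5a, 13 of Slc16a, 24 of Slc22a, 6 of Slc27a, 4 of Slc29a and 13 of Slco. The choice used gene symbols alone and no measured value.

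All libraries came from midbrain of untreated adult control mice of the line Stard8-TRAP ES2342, which carries the transgene Stard8-EGFP/Rpl10a. In such a line the ribosomal protein Rpl10a is fused to EGFP and made in cells in which the regulatory sequence of Stard8 is active, so that polysomes of those cells can be captured with antibodies against EGFP (translating ribosome affinity purification, TRAP). Captured RNA (IP) gave 3 libraries, numbered 1, 2 and 4, and the RNA that was not captured (unbound) gave 4, numbered 1 to 4. The labels give neither sex nor exact age and do not say whether libraries came from separate or pooled mice, so p-values measure the spread between these libraries, which may in part be technical.

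Solute carriers move small molecules across membranes. Slc2a proteins (GLUT) let hexoses and related polyols pass down their gradient, Slc5a proteins couple glucose, inositol, iodide or vitamins to sodium, and Slc16a proteins (MCT) carry lactate, pyruvate, thyroid hormone, creatine and carnitine. Slc22a proteins move organic cations, anions and carnitine, Slc27a proteins take up and activate fatty acids, Slc29a proteins equilibrate nucleosides, and Slco proteins (OATP) carry large organic anions such as steroid conjugates, prostaglandins and thyroid hormone. In brain these families are divided between the endothelium of the blood-brain barrier, glia and neurons.

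Depth was between 52052340 and 76114634 counts in genes per library. Levels are given as CPM, the count of a gene scaled to a common effective library size, and 3 counts corresponded to between 0.0376 and 0.059 CPM. Stard8 measured 388, 440 and 227 CPM in IP 1, 2 and 4 and between 3.51 and 4.89 CPM in unbound. Rpl10a had 282, 345 and 358 CPM in IP and between 40.5 and 326 CPM in unbound. Its groups overlapped (adjusted p = 0.142 in the edgeR test described below). Marker lists went against the series' description of these cells as neurons. All 10 neuron markers were lower in IP, with a summed level of 3232, 3485 and 7070 CPM in IP 1, 2 and 4 against 12269 to 19608 in unbound. All 10 endothelial markers (1556 to 1844 CPM in IP, 10.8 to 19.6 in unbound), all 10 pericyte and smooth muscle markers (3491 to 5092 against 28.6 to 43.0) and all 10 microglia and macrophage markers (1020 to 1084 against 33.6 to 64.5) were higher. Higher were also 4 of 8 astrocyte markers (3083 to 3546 against 1616 to 2673), 5 of 8 fibroblast and meningeal markers (538 to 1418 against 309 to 898) and 3 of 9 tested ependymal and choroid plexus markers, with 1 lower (171 to 452 against 192 to 309). All 8 oligodendrocyte markers (847 to 1578 against 5049 to 6828), 5 of 7 precursor markers, with 1 higher (188 to 247 against 296 to 464), and 3 of 4 erythroid markers (73.9 to 93.5 against 86.8 to 180) were lower. The sums cover whole lists. Most of the erythroid sum was Bpgm, which did not pass (mean 82.3 CPM in IP, 92.0 in unbound). Glul and Ptgds, the largest parts of the astrocyte and fibroblast sums, did not pass either. The higher precursor marker, Cspg4, is also in the pericyte and smooth muscle list, and Pdgfra is in the precursor and fibroblast lists. Among all these markers 1, Higd1b, had 0 counts in some library, and none was at 0 throughout. In the neuron and oligodendrocyte sums IP 4 stood nearer to unbound than IP 1 and IP 2 did. The part of these cell types in each carrier's result was not tested.

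Taken over all 81 genes, carrier RNA was about as abundant in IP as in unbound, but it came from other families. The summed level was 737, 772 and 920 CPM in IP 1, 2 and 4 and 883, 760, 976 and 863 CPM in unbound 1 to 4, and these ranges overlapped. The Slc16a family summed to 213, 218 and 194 CPM in IP against 45.9, 43.3, 54.6 and 46.4 in unbound, and Slco to 185, 184 and 187 against 76.2, 58.6, 101 and 83.8. Both families were above the unbound range in every IP library. Slc22a summed to 101, 111 and 189 CPM in IP against 311, 291, 375 and 294 in unbound, Slc2a to 63.9, 78.9 and 105 against 145, 113, 157 and 174, and Slc5a to 45.6, 47.2 and 79.9 against 134, 104, 120 and 135. These 3 families, and Slc27a with 62.5 to 74.0 against 75.0 to 106 CPM, lay below every unbound library. The sum of Slc29a was 62.9 to 91.3 CPM in IP and 48.3 to 66.7 in unbound, with overlap. Slc16a made up 25.7% of carrier counts in IP and 5.46% in unbound, while Slc22a made up 16.5% and 36.5%. These sums compare captured with uncaptured RNA, and in this bulk RNA the cells that each carrier's RNA came from cannot be told apart.

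**Figure D1:**
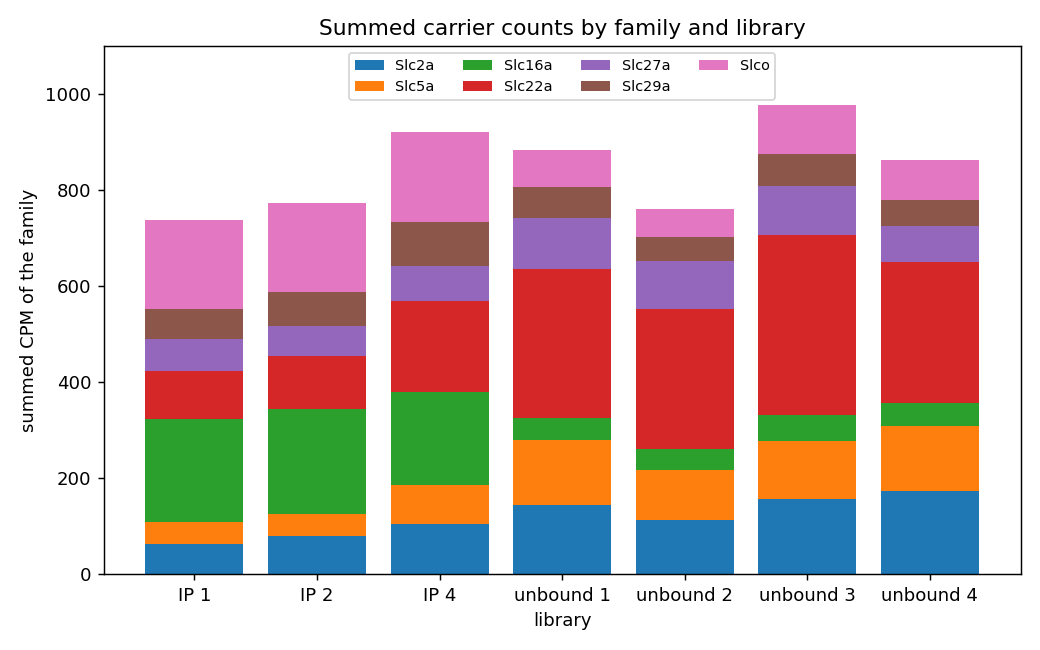
Summed CPM of the 81 carriers in each of the 7 libraries (x axis), stacked by family (y axis, CPM, from 0). The Slc16a block is 194 to 218 CPM high in the 3 IP libraries and 43.3 to 54.6 in the 4 unbound libraries, while the whole bars span similar heights in both groups.

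Of the 81 carriers, 54 passed the filter on low counts and were tested, and 27 were not. Passing the threshold means an adjusted p below 0.05 in edgeR's quasi-likelihood test. It was met by 24 carriers, 44.4% of those tested, against 39.4% of all 17654 genes tested. Higher in IP were 11 (20.4%, against 20.5% of all genes) and lower 13 (24.1%, against 18.9%), so that the carriers were called at rates near those of all genes. All 24 differed at least 2-fold, as did 17.3% (higher) and 15.6% (lower) of all genes tested. The groups did not overlap in 23 of the 54 (42.6%, against 47.7% of all genes), with 12 above every unbound library (22.2%, against 25.1%) and 11 below (20.4%, against 22.7%). The median log2 fold change was -0.02 among the tested carriers and -0.10 among all tested genes. The number of lower carriers rested on single IP libraries, as did that of all lower genes. Without IP 1 there were 7 lower carriers and without IP 2 there were 6, against 13 with all libraries. All lower genes numbered 1899 and 1751 in these fits, against 3328. The total without IP 2 was 15 carriers and 4547 genes, against 24 and 6950. Without IP 4 there were 10 higher and 14 lower carriers (3321 and 3213 of all genes). Without both IP 4 and unbound 2 there were 9 and 14 (4096 and 3957 of all genes).

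**Figure D2:**
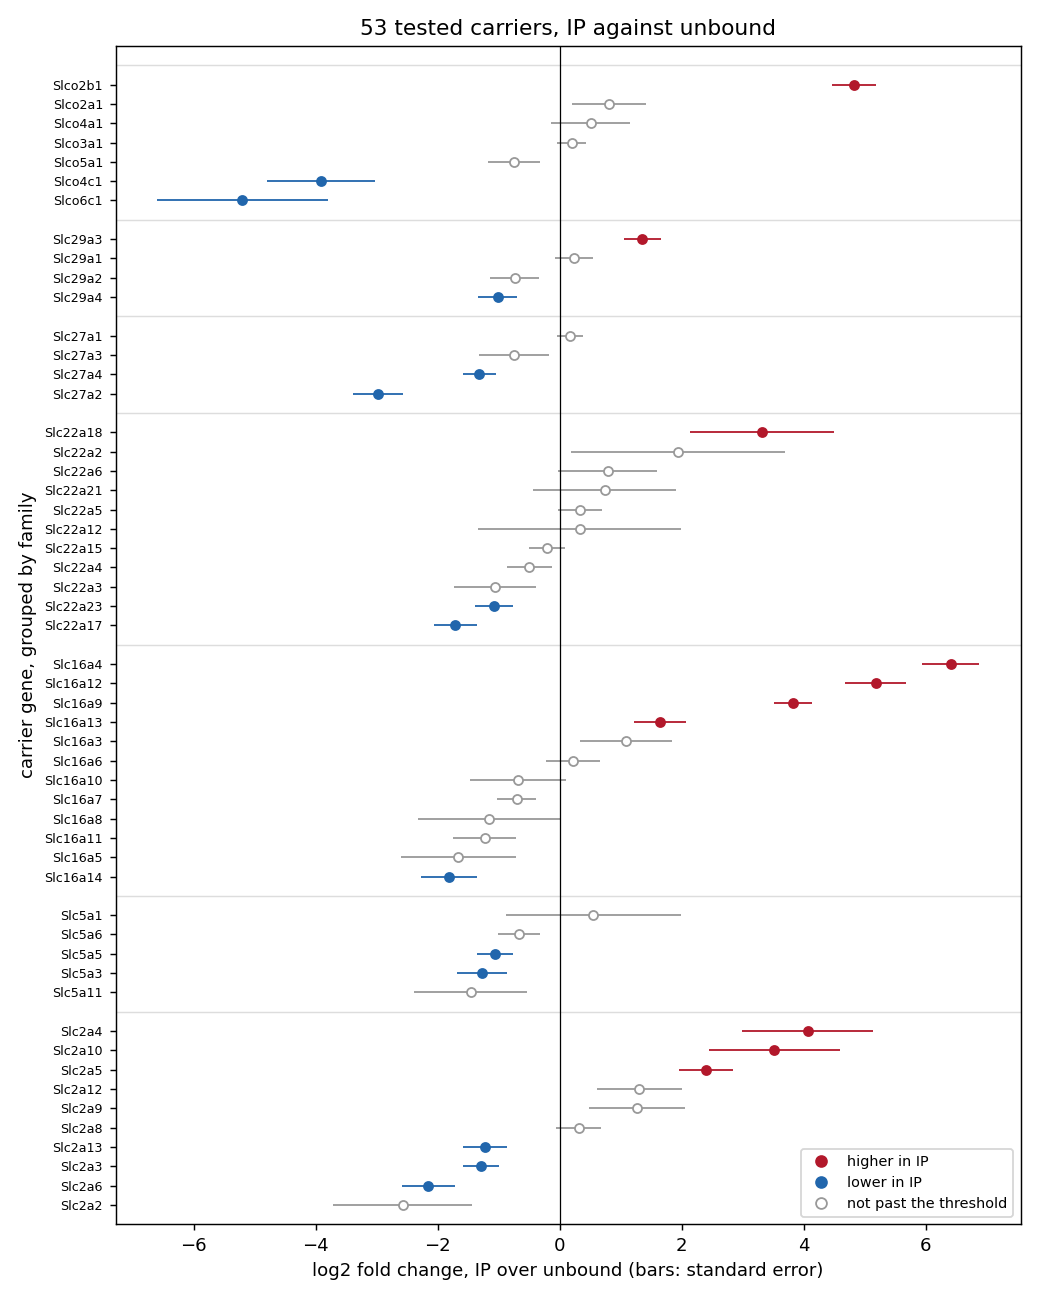
Log2 fold change of IP over unbound (x axis) with its standard error for 53 of the 54 tested carriers, grouped by family (y axis). Filled points passed the threshold, 10 to the right of 0 and 13 to the left, and open points did not. Slc16a4 is the rightmost at 6.41 and Slco6c1 the leftmost at a fitted -5.20.

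RefSeq start sites (GRCm38.p6) were listed for 64 of the 81 carriers. The 250 bases before the start are shown for the 2 higher and the 2 lower carriers with the smallest p among those with a single listed start, since they let the start regions of both directions be compared. By the gene coordinates given below, the Slc27a2 window lies inside its gene and the Slc16a9 window overlaps the first bases of its gene. Capitals mark CpG dinucleotides, and each sequence runs 5′ to 3′ on the gene's strand.
Slc16a4, higher, chr3:107290980-107291229, plus strand: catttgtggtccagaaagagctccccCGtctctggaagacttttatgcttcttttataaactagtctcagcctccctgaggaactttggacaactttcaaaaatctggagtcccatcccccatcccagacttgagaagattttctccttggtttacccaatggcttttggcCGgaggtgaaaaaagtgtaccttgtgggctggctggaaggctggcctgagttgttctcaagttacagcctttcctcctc
Slc16a9, higher, chr10:70245026-70245275, plus strand: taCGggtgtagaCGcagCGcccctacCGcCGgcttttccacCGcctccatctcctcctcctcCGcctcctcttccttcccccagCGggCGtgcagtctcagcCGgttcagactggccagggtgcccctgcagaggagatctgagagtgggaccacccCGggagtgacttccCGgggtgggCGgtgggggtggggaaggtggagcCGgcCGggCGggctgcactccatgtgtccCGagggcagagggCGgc
Slc27a2, lower, chr2:126552774-126553023, plus strand: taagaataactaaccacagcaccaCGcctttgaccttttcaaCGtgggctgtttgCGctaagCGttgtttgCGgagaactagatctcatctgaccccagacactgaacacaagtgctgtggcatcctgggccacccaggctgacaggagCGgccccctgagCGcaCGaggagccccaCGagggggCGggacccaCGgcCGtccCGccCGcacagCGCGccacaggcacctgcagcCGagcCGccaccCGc
Slc2a6, lower, chr2:27027999-27028248, minus strand: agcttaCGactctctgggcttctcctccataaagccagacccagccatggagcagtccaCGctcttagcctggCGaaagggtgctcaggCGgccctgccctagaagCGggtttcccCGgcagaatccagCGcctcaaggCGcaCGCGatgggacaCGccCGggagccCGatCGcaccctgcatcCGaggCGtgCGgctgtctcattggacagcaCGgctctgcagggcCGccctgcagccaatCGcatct

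The windows of Slc16a4, Slc16a9, Slc27a2 and Slc2a6 held 2, 18, 19 and 20 CpG dinucleotides, so that Slc16a4 stands apart from the other 3. Over the 12 windows of the lower carriers the median was 17.5, with a range of 4 to 32, and over the 10 windows of 8 higher carriers it was 6, with a range of 0 to 18. Counted once per gene (the mean of its windows), since Slco2b1 has 3 of these 10 windows, the medians were 17.5 for the 12 lower, 9.5 for the 8 higher and 9.62 for the 24 carriers that did not pass. The 3 listed starts of Slco2b1 had 2, 3 and 4, Slc16a12 had 11 and Slc22a18 had 0. All 32851 RefSeq windows of this length had a median of 6, but they include genes not tested here. The 23 windows of 20 carriers that were not tested had a median of 1. The letters GGGCGG, the GC box bound by Sp1, searched on both strands, were found in 9 of the 12 windows of lower carriers, 4 of the 10 of higher carriers, 17 of the 35 of tested carriers that did not pass and 32.7% of all windows. Counted once per gene, with any window holding the box, these were 9 of 12 lower, 4 of 8 higher and 12 of 24 carriers that did not pass. Of the 23 windows of the carriers that were not tested, 1 held the box. These counts describe the letters in the windows, and no test was made.

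The monocarboxylate carriers of Slc16a held 5 of the 11 higher carriers and 1 lower, of 13 tested. These are 38.5% and 7.69%, against 20.5% and 18.9% of all genes tested. The families are small, and no family's share was tested against that of all genes. Of the higher Slc16a carriers, 4 are described here. Slc16a4 (MCT5), whose substrates are poorly known, measured 25.7, 27.6 and 24.3 CPM in IP 1, 2 and 4 and 0.276, 0.103, 0.323 and 0.512 CPM in unbound 1 to 4. The IP libraries differed little among themselves and were far above the unbound ones (log2 fold change 6.41 ± 0.47, standard error, adjusted p = 4.04e-06). The gene lies on chromosome 3 from 107291230 to 107312115, plus strand (coordinates here and below are GRCm38). Slc16a12, a creatine carrier (chromosome 19, 34668403 to 34747289, minus strand), had 39.3, 41.2 and 24.5 CPM in IP and 1.89, 0.429, 0.607 and 0.9 CPM in unbound. It was lowest in IP 4 among the IP libraries and rose by 5.17 ± 0.50 on the log2 scale (adjusted p = 2.45e-05).

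Slc16a9 (MCT9), a carnitine carrier (chromosome 10, 70245100 to 70285968, plus strand), had 41.1, 36.0 and 28.2 CPM in IP and 2.62, 1.70, 3.42 and 2.15 in unbound. The groups were far apart, with a log2 fold change of 3.83 ± 0.31 (adjusted p = 7.85e-06). In the annotation, 23.5% of its exon length is shared with genes on the opposite strand. Slc16a13 (chromosome 11, 70216789 to 70221064, minus strand), which the naming rule did not take, had 5.82, 9.93 and 9.59 CPM in IP and 3.62, 1.39, 3.64 and 2.12 in unbound. Its difference was smaller, 1.65 ± 0.43 (adjusted p = 0.0113), and did not pass without IP 2 (adjusted p = 0.0557) or within index ACAGTG, the library tag of IP 1, IP 2, unbound 1 and unbound 2 (adjusted p = 0.122). IP 4, unbound 3 and unbound 4 carry index GTGAAA.

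Slc16a14, the only lower member (chromosome 1, 84905898 to 84935134, minus strand), had 1.75, 2.27 and 4.80 CPM in IP and 15.8, 6.51, 8.90 and 10.01 in unbound. Its highest IP library, IP 4, lay below its lowest unbound library, a difference of -1.82 ± 0.46 (adjusted p = 0.01), and it did not pass without IP 2 (adjusted p = 0.0536). The difference was -2.48 within index ACAGTG and -0.96 within index GTGAAA. The proton-linked lactate carriers Slc16a3, Slc16a7 and Slc16a8 did not pass. Slc16a7 (MCT2), the high-affinity carrier of neurons, had 5.58, 7.98 and 10.6 CPM in IP and 10.3 to 15.9 in unbound (-0.70 ± 0.32, adjusted p = 0.101). Slc16a3 (MCT4), which exports lactate from glycolytic cells, had 0.587, 1.85 and 0.55 CPM in IP and 0.38 to 0.55 in unbound (1.08 ± 0.75, adjusted p = 0.28). Slc16a8 (MCT3) and the other 4 members had log2 fold changes between -1.66 for Slc16a5 and 0.22 for Slc16a6. They were Slc16a5, Slc16a6, Slc16a8, Slc16a11 and Slc16a10, the last a carrier of aromatic amino acids.

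Slc16a11 and Slc16a13 are neighbours on chromosome 11, transcribed toward each other with 372 bases between their ends. Slc16a13 had 2.66, 4.63 and 9.96 times the counts of Slc16a11 in IP 1, 2 and 4, and 1.22, 0.199, 0.985 and 0.723 times in unbound 1 to 4. The ratio was thus above every unbound library in every IP library. Slc16a11 itself had 2.19, 2.14 and 0.963 CPM in IP and 2.93 to 6.99 in unbound, and its difference of -1.23 ± 0.52 missed the threshold (adjusted p = 0.0819). This pair was singled out after its values were seen.

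Among the organic anion carriers of Slco, 1 of 7 tested members rose and 2 fell (20.5% and 18.9% of all genes tested). Slco2b1 (OATP2B1), which carries steroid sulfates and shares 9.22% of its exon length with opposite-strand genes, measured 106, 89.3 and 109 CPM in IP and 1.68, 4.47, 4.84 and 3.34 in unbound. All IP libraries were far above all unbound ones, with a log2 fold change of 4.83 ± 0.36 (adjusted p = 4.51e-06). It lies on chromosome 7 from 99657804 to 99711340, minus strand. It accounted for 54.8% of the family's summed CPM in IP and 4.48% in unbound. Slco3a1, the most abundant member in unbound (chromosome 7, 74275419 to 74554780, minus strand), had 67.1, 86.5 and 66.1 CPM in IP and 64.0, 46.6, 81.0 and 63.8 in unbound. These values overlapped, and the log2 fold change was 0.20 ± 0.24 (adjusted p = 0.545).

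The 2 lower Slco genes were scarce in both groups. Slco4c1 (chromosome 1, 96816270 to 96872171, minus strand) had 0.2, 0.0523 and 0.059 CPM in IP and 0.639, 1.87, 1.67 and 2.31 in unbound (-3.91 ± 0.89, adjusted p = 0.00569). It did not pass within index ACAGTG (adjusted p = 0.125), and without IP 1 the difference was -4.80. Slco6c1, known mainly from testis (chromosome 1, 97059038 to 97128301, minus strand), had 3 counts in all IP libraries together, all in IP 4, and 175 in unbound. Unbound was 43.2 times IP (95% exact interval for counting error 14.5 to 212), and the fitted difference (adjusted p = 0.0135) did not pass when IP 1 or IP 2 was left out (adjusted p = 0.0584 and 0.0625) or within index GTGAAA (adjusted p = 0.0824). Only Slco6b1, with at most 4 counts in a library, lies between these 2 genes among the carriers. Slco2a1, the prostaglandin carrier, had 6.90, 3.08 and 5.27 CPM in IP and 0.704 to 5.42 in unbound (0.81 ± 0.60, adjusted p = 0.31). Slco4a1 and Slco5a1 had log2 fold changes of 0.51 and -0.75 and did not pass.

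**Figure D3:**
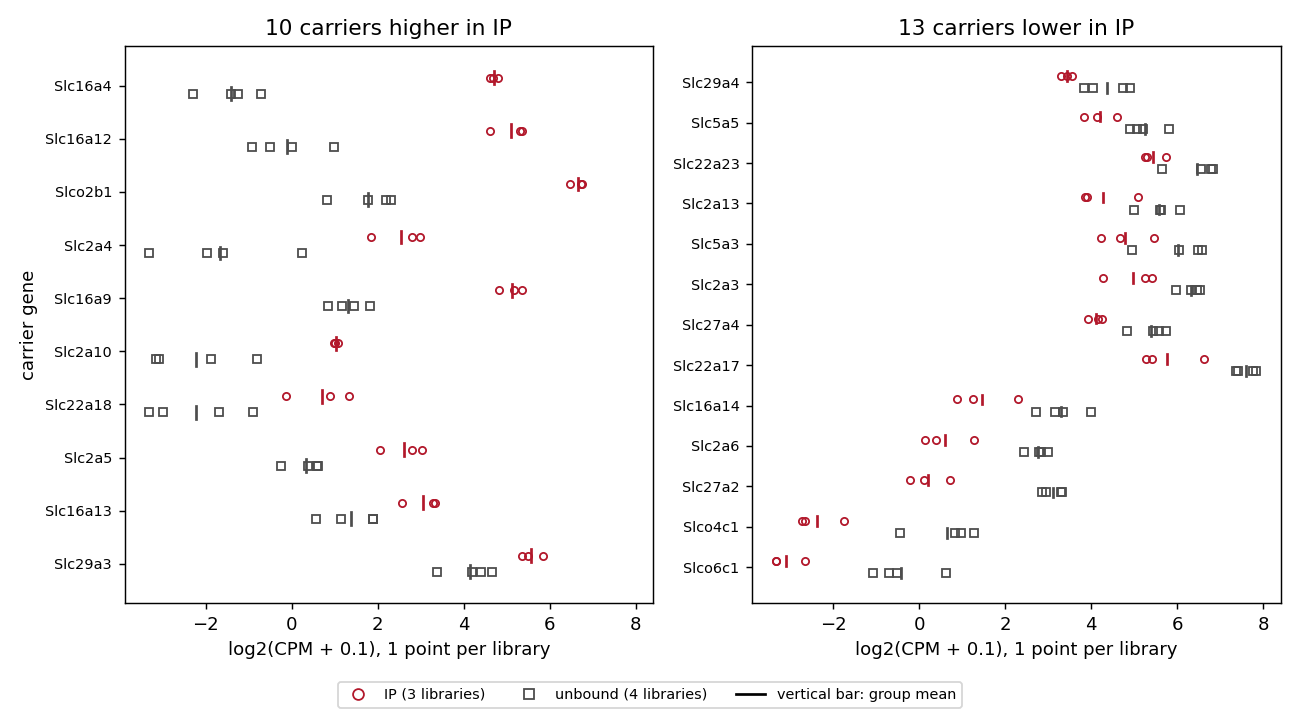
log2(CPM + 0.1) of 23 of the 24 carriers past the threshold (y axis: gene) in every library, 3 IP libraries as circles and 4 unbound libraries as squares, with group means as vertical bars. The 10 higher carriers drawn are on the left and the 13 lower on the right. The groups overlap only for Slc2a13, Slc5a3 and Slc22a23, each through unbound 2 and IP 4.

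The hexose carriers of Slc2a split, with 3 higher and 3 lower of 10 tested (20.5% and 18.9% of all genes tested). Slc2a3 (GLUT3), the main glucose carrier of neurons (chromosome 6, 122727809 to 122801640, minus strand), had 19.2, 37.7 and 42.3 CPM in IP and 79.6, 63.2, 88.4 and 92.3 in unbound. Every IP library was below every unbound library, a difference of -1.29 ± 0.30 (adjusted p = 0.00619) that did not pass within index ACAGTG (adjusted p = 0.0678). It was the most abundant member per length in both groups. Slc2a13 (HMIT), a proton-coupled inositol carrier (chromosome 15, 91267696 to 91573261, minus strand), had 14.8, 14.3 and 33.9 CPM in IP and 48.5, 31.6, 49.5 and 66.5 in unbound. IP 4 was above unbound 2, and the difference of -1.23 ± 0.37 (adjusted p = 0.0221) did not pass without IP 1, IP 2 or unbound 4 (adjusted p = 0.0974, 0.105 and 0.0593). Slc2a6 (GLUT6), a hexose carrier of lysosomes (chromosome 2, 27021363 to 27027998, minus strand), had 1.0, 2.32 and 1.22 CPM in IP and 7.88, 6.77, 7.0 and 5.33 in unbound (-2.16 ± 0.43, adjusted p = 0.00288, and 0.0577 within index ACAGTG).

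The higher Slc2a members stayed under 10 CPM in every library. Slc2a5 (GLUT5), a fructose carrier that in brain is known from microglia (chromosome 4, 150119283 to 150144169, plus strand), had 6.83, 4.04 and 8.04 CPM in IP and 1.40, 0.739, 1.42 and 1.20 in unbound (2.40 ± 0.44, adjusted p = 0.0018, and 0.0592 within index ACAGTG). Slc2a4 (GLUT4), the insulin-responsive carrier of muscle and fat (chromosome 11, 69942539 to 69948188, minus strand), had 7.78, 6.88 and 3.50 CPM in IP and 0, 0.155, 1.08 and 0.229 in unbound (4.06 ± 1.07, adjusted p = 0.0125). Without unbound 3 the difference was 5.58, and within index GTGAAA it was 2.44. Slc2a10 (GLUT10), mutated in arterial tortuosity syndrome (chromosome 2, 165503787 to 165519917, plus strand), had 1.88, 2.0 and 1.93 CPM in IP and 0.0125, 0.0172, 0.171 and 0.477 in unbound (3.52 ± 1.08, adjusted p = 0.0246). Every IP library was above every unbound library for all 3. Slc2a10 did not pass without IP 1, IP 2 or unbound 3 (adjusted p = 0.059, 0.0671 and 0.0552), and without unbound 4 its difference was 4.87. Slc2a8, Slc2a9 (a urate carrier), Slc2a12 and Slc2a2 (the carrier of liver and pancreatic beta cells) had 0.31, 1.26, 1.30 and -2.58 and did not pass.

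Of the sodium-coupled Slc5a carriers, 2 of 5 tested fell and 0 rose (18.9% and 20.5% of all genes tested). An edgeR p below 0.05 before adjustment was reached by no further tested member, and neither DESeq2 nor limma voom called a higher one. Slc5a9, which did not pass the filter on low counts, was called higher with no filter (adjusted p = 0.0242) and without IP 2 (adjusted p = 0.0185). Of its 142 counts in IP, 127 came from IP 4. Within index GTGAAA, where IP 4 is the only IP library, its log2 fold change was 6.42. Slc5a3 (SMIT1), the sodium/inositol carrier (chromosome 16, 92058322 to 92087473, plus strand), had 18.6, 25.4 and 43.7 CPM in IP and 95.4, 30.6, 65.6 and 90.0 in unbound. Unbound 2 and IP 4 overlapped, and the difference was -1.27 ± 0.41 (adjusted p = 0.0314). It did not pass without IP 1, IP 2, unbound 1, unbound 3 or unbound 4 (adjusted p = 0.124, 0.116, 0.0728, 0.0513 and 0.0753), nor within index ACAGTG (adjusted p = 0.106). Its exons share 1.46% of their length with Mrps6 and a further transcript on the same strand. Reads matching more than 1 gene and assigned to none were 1.55% ± 0.107 of reads in IP and 9.95% ± 1.89 in unbound. This difference could bear on other carriers with shared exons, such as Slc16a9, Slc27a2 and Slco2b1. Its part in their results was not tested. Slc5a5, the sodium/iodide carrier of the thyroid (chromosome 8, 70882889 to 70892757, minus strand), had 17.5, 14.2 and 24.3 CPM in IP and 30.0, 55.9, 36.9 and 33.3 in unbound. The groups did not overlap, with a difference of -1.06 ± 0.29 (adjusted p = 0.0156) that did not pass without IP 1 or IP 2 (adjusted p = 0.0684 and 0.088) or within index ACAGTG or GTGAAA (adjusted p = 0.0541 and 0.117). Slc5a6, the multivitamin carrier, had 7.16 to 8.88 CPM in IP and 7.03 to 16.5 in unbound (-0.67 ± 0.34, adjusted p = 0.143, and adjusted p = 0.0311 without unbound 1). Slc5a1 (SGLT1) and Slc5a11 (SMIT2) were at most 0.282 and 1.29 CPM in any library.

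Of the organic ion carriers of Slc22a, 11 of 24 were tested, of which 2 fell and 1 rose (18.9% and 20.5% of all genes tested). Slc22a17, a receptor for the siderophore-binding protein lipocalin 2 (chromosome 14, 54906304 to 54913132, minus strand), was the most abundant carrier per length in unbound. It had 38.6, 42.4 and 98.7 CPM in IP and 171, 217, 230 and 166 in unbound. IP 4 stood well above the other IP libraries but below all unbound ones, with a log2 fold change of -1.71 ± 0.35 (adjusted p = 0.0033). Without IP 4 the difference was larger, -2.27, and within index GTGAAA it was -0.98. Slc22a23 (chromosome 13, 34179158 to 34345182, minus strand) had 37.8, 39.3 and 53.7 CPM in IP and 113, 49.8, 111 and 94.6 in unbound. IP 4 and unbound 2 overlapped, and the difference of -1.08 ± 0.30 (adjusted p = 0.017) did not pass without IP 1 or IP 2 (adjusted p = 0.0765 and 0.0799) or within index ACAGTG (adjusted p = 0.131).

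Slc22a18, an imprinted gene (chromosome 7, 143473736 to 143499334, plus strand), had 1.76, 0.819 and 2.44 CPM in IP and 0.0251, 0, 0.437 and 0.212 in unbound (3.32 ± 1.18, adjusted p = 0.0454). It did not pass without any 1 of the IP libraries, unbound 1 or unbound 4 (adjusted p = 0.0634 to 0.122), and without unbound 3 the difference was 4.40. The carnitine carrier Slc22a5 had 5.23, 5.19 and 9.26 CPM in IP and 3.90 to 6.67 in unbound (0.33 ± 0.36, adjusted p = 0.503). Its neighbours Slc22a4, which carries ergothioneine, and Slc22a21 had -0.50 and 0.74 and did not pass. Slc22a6 (OAT1), an organic anion carrier known from kidney, had 3.01, 3.80 and 7.92 CPM in IP and 0.15, 2.49, 3.74 and 5.03 in unbound, with overlap (0.78 ± 0.81, adjusted p = 0.472). The carriers of monoamines and other cations, Slc22a3 (OCT3) and Slc22a2 (OCT2), were at most 3.26 and 0.454 CPM in any library and did not pass. Slc22a15 and Slc22a12 had log2 fold changes of -0.21 and 0.32.

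Among the fatty acid carriers of Slc27a, 2 of 4 tested members fell, against 18.9% of all genes tested. Slc27a2, which activates very long-chain fatty acids (chromosome 2, 126552407 to 126588243, plus strand), had 0.76, 0.976 and 1.55 CPM in IP and 9.69, 7.63, 7.12 and 9.97 in unbound, with a log2 fold change of -2.97 ± 0.41 (adjusted p = 0.000262). Slc27a4 (FATP4; chromosome 2, 29802634 to 29817522, plus strand) had 17.9, 19.1 and 15.0 CPM in IP and 53.4, 43.0, 47.7 and 28.6 in unbound, with -1.32 ± 0.26 (adjusted p = 0.00296). Both were below the unbound range in every IP library, IP 4 included. In the annotation, 11.2% of the exon length of Slc27a2 is shared with a gene on the opposite strand. Slc27a1 (FATP1; chromosome 8, 71568882 to 71587302, plus strand), the most abundant member per length in IP, had 43.8, 41.5 and 55.4 CPM in IP and 40.6, 46.8, 45.2 and 34.8 in unbound. The groups overlapped (0.17 ± 0.22, adjusted p = 0.581). Slc27a3 had -0.75 ± 0.57 and did not pass.

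The 4 nucleoside carriers of Slc29a were all tested, and 1 rose and 1 fell (20.5% and 18.9% of all genes tested). Slc29a3 (ENT3), the carrier of lysosomes (chromosome 10, 60712072 to 60752794, minus strand), had 40.6, 45.3 and 57.1 CPM in IP and 18.3, 10.3, 21.03 and 25.2 in unbound. All IP libraries were above all unbound ones, with a log2 fold change of 1.35 ± 0.30 (adjusted p = 0.00523). Slc29a4 (PMAT), which carries monoamines (chromosome 5, 142692512 to 142722490, plus strand), had 9.79, 10.7 and 11.7 CPM in IP and 29.9, 16.3, 26.6 and 14.2 in unbound. It fell by 1.02 on the log2 scale (adjusted p = 0.0254), and did not pass without IP 1, IP 2, unbound 1 or unbound 3 (adjusted p = 0.0969, 0.087, 0.0523 and 0.0702), within index ACAGTG or GTGAAA (adjusted p = 0.0915 and 0.0829) or with the library number as a block (adjusted p = 0.111). The plasma membrane carriers Slc29a1 (ENT1) and Slc29a2 (ENT2) had 0.23 ± 0.31 and -0.74 ± 0.40. Slc29a2 passed as lower without IP 4 (-1.24, adjusted p = 0.0334).

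Levels of different genes were compared per kilobase of exon. In IP, Slco2b1 (17.0 ± 1.77 CPM per kilobase) was ahead of Slc16a9 (9.07), Slco3a1 (8.64) and Slc16a12 (8.39). Slc22a17 had 8.56, 9.39 and 21.9 CPM per kilobase in IP 1, 2 and 4, so that its place rested on IP 4. Over IP 1 and IP 2 its mean was 8.97, against 9.97 for Slc16a9, 9.65 for Slc16a12, 9.06 for Slco3a1 and 16.4 for Slco2b1. In unbound the order began with Slc22a17 (43.4 ± 7.06), followed by Slc22a23 (14.4 ± 4.59), Slc5a5 (13.3 ± 3.96), Slc2a3 (11.2 ± 1.79) and Slc27a4 (9.79 ± 2.40). Slc22a17 alone stood clear of the next in unbound, and the neighbours after it lay within their spread.

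**Figure D4:**
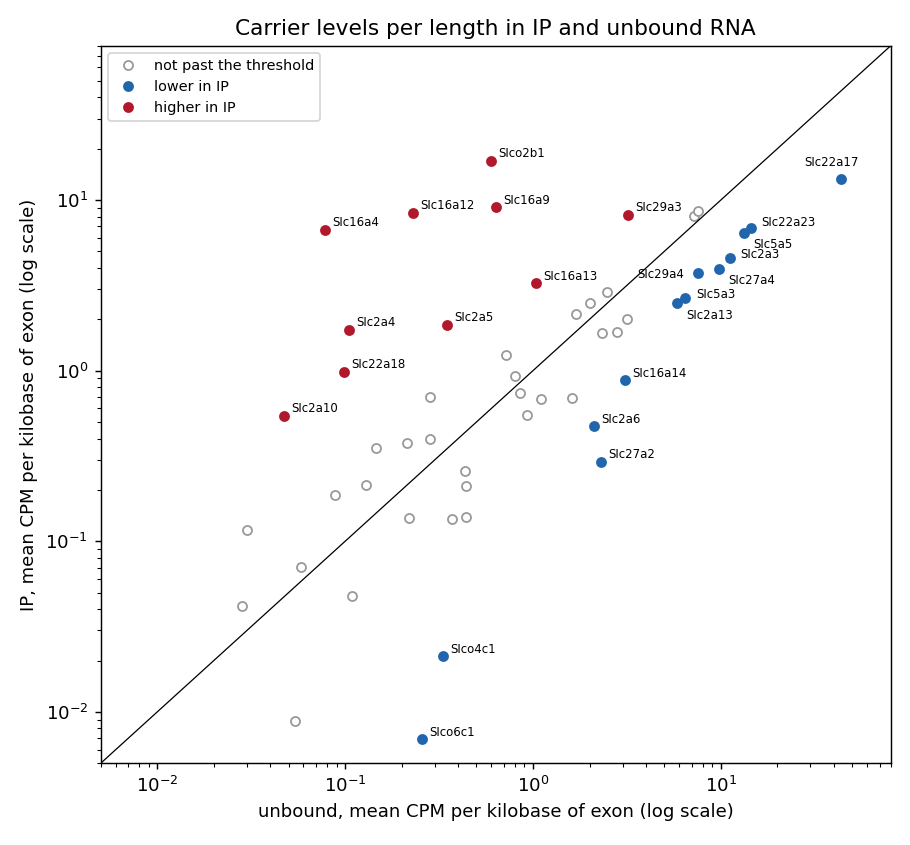
Mean CPM per kilobase of exon in unbound (x axis, log scale, 4 libraries) and IP (y axis, log scale, 3 libraries) for 53 of the 54 tested carriers. The line marks equal levels. Slco2b1 lies far above it at 17.0 in IP, and Slc22a17 is highest in unbound at 43.4.

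The 27 carriers not tested include 9 with 0 counts in every library, which were Slc22a13, Slc22a20, Slc22a26, Slc22a27, Slc22a28, Slc22a30, Slc2a7, Slco1a1 and Slco6d1. A further 9 had fewer than 10 counts in every library: Slc22a14, Slc22a16, Slc22a19, Slc22a22, Slc5a2, Slc5a12, Slco1a5, Slco1a6 and Slco6b1. The remaining 9 reached 10 or more counts in some library. Among these were Slc22a7, Slc22a29, Slc27a5, Slc27a6, Slc5a8, Slc5a9, Slc5a10 and Slco1b2. The highest count among them was 127, of Slc5a9 (a sodium-coupled sugar carrier) in IP 4, against 15 in IP 1, 0 in IP 2 and at most 3 in unbound. A count of 0 does not show absence below the level of 3 counts.

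The carriers were set beside 8 lists of genes that handle the same substrates, 100 tested genes in all. Of all tested genes, 20.5% rose and 18.9% fell, together 39.4%. Of the 100 list genes, 33 rose and 17 fell, with a median log2 fold change of 0.07 against -0.10 for all tested genes. Without IP 1 or IP 2 the number that fell was 10 and 9. Of 15 genes of lactate and pyruvate handling, 1 rose and 3 fell. The riser was Bsg, the partner protein that several MCTs need to reach the membrane, with 1185 ± 107 CPM in IP and 303 ± 106 in unbound (1.97 ± 0.29, adjusted p = 0.000436), and it was also the most abundant. The lactate dehydrogenase subunit Ldhb fell by 1.23 (adjusted p = 0.00206). Of 21 genes of glucose phosphorylation and glycolysis, 2 rose and 7 fell. The hexokinase Hk3, known from myeloid cells, rose by 2.96 ± 0.71 (3.85 without unbound 1), the neuronal enolase Eno2 fell by 1.93, and Gapdh, the most abundant, had -0.56 ± 0.30 (adjusted p = 0.153, and 0.0402 without IP 4). Of 8 genes of inositol metabolism 1 rose and 1 fell. Isyna1, which makes inositol phosphate from glucose 6-phosphate, had 84.9 ± 1.84 CPM in IP and 16.9 ± 4.65 in unbound (2.33 ± 0.26, adjusted p = 5.95e-05), in contrast to the lower inositol carriers Slc5a3 and Slc2a13. The kinase Itpk1 fell by 0.82 (adjusted p = 0.0309) but did not pass without IP 1, IP 4 or unbound 1 (adjusted p = 0.144, 0.0775 and 0.053), and the most abundant, Pi4ka, had -0.46 ± 0.28 (adjusted p = 0.216, and 0.0463 without unbound 2).

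Lists around fatty acids, drugs and monoamines had more higher members. Of 17 genes of carnitine and fatty acid activation, 10 rose and 2 fell. Cpt1a, the mitochondrial carnitine palmitoyltransferase, rose from 12.6 ± 3.03 to 92.1 ± 17.5 CPM (2.87 ± 0.26), its neuronal relative Cpt1c fell by 1.58, and the fatty acid binding protein Fabp7, the most abundant, rose by 1.98 ± 0.27. Of 9 genes of drug and conjugate efflux, 5 rose and 1 fell. The barrier pumps Abcg2 and Abcb1a rose by 4.34 ± 0.29 and 6.40 ± 0.84 (the latter 7.61 without unbound 1), and Abcc5 fell by 1.60. Of 9 genes of monoamine breakdown and prostaglandin handling 7 rose and 2 did not pass. Hpgd, which breaks down prostaglandins, rose by 4.09 ± 0.25. Of 8 genes of thyroid hormone handling 3 rose and 5 did not pass. Slc7a5, an amino acid carrier that also takes thyroid hormone, rose by 3.77 ± 0.37, and the receptor Thra had -0.52 ± 0.24 (adjusted p = 0.112). Of 13 genes of nucleoside and adenosine handling 4 rose and 3 fell, among them the receptor Adora2a (6.90 ± 0.51), the deaminase Cda (-2.34 ± 0.43) and the most abundant, the receptor Adora1 (-0.76 ± 0.27, adjusted p = 0.0466). Adora2a had 7.49 without unbound 3. Adora1 did not pass without IP 1, IP 2 or any 1 of unbound 1, 3 and 4 (adjusted p = 0.0905 to 0.204). In 5 of the 8 lists more members rose than fell. All endothelial, pericyte and smooth muscle, and microglia and macrophage markers given above were higher as well. So were some astrocyte, fibroblast and ependymal markers, while all neuron and oligodendrocyte markers were lower. The part of these cell types in the list counts was not tested.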

How the data were processed

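The authors deposited 1 file per library with read counts per gene symbol. Per the submitters' processing notes the tools were STAR 2.0.0e (alignment) and HTSeq (counting) and the build mm10. The sources used here name no annotation, strand setting or read filter. The rows that name no gene held 48.1% to 59.8% of reads in IP and 42.0% to 53.9% in unbound and entered neither library sizes nor tests.

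The main test was that of edgeR 4.0.16 (R 4.3.3), with filterByExpr (17654 genes kept), TMM scaling, robust quasi-likelihood test of IP against unbound over all 7 libraries (2-sided), Benjamini-Hochberg over all genes tested. CPM was computed from the counts, a log2 fold change is given ± its standard error, and ± after a CPM is the SD (n = 3 IP, 4 unbound). Per-kilobase levels used the summed exon length in GENCODE M21 (GRCm38, the build also named mm10), in which all 81 carriers were found, and which may differ from the authors' annotation. Start sites came from RefSeq. The test was also run on simulated data, in which far fewer genes were changed than were called here. That run is not used as support. No 2 libraries of a group agreed within sampling noise (chi-square per degree of freedom 77.7 to 1206). Intervals and floors from counts reflect counting error alone, because PCR copies of a molecule were not told apart.

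The carriers, lists and alternatives were chosen with earlier results of these data known. The rule for carriers given with the value of every library took, in each family, up to 4 carriers past the threshold in each direction by smallest p and the most abundant per length in each group. Of each partner list the rule took the smallest p in each direction and the most abundant gene. Other carriers given with values (Slc16a13 and members that did not pass, such as Slc16a3, Slc16a7, Slc22a5 and Slco2a1) fall outside this rule and were chosen with their values known. Alternatives were RLE and library size scaling, 2 other filters, DESeq2 1.42.0, limma 3.58.1 voom, a block for the replicate number, a covariate for the index sequence or libraries of 1 index only, leaving out the 10 most abundant genes, and leaving out libraries. IP and unbound libraries share no lane number, so lane and group cannot be told apart. Some genes that the naming rule takes are counted but not reported by name here.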

Additional observations from a re-analysis of the deposited data

Results flagged for a closer look

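In 3 of 54 sets of 4 unbound values examined, 1 library lay far from the others, where chance flags about 1 in 20. The summed level of the Slc27a carriers was 75.0 CPM in unbound 4 and between 101 and 106 CPM in the other unbound libraries. Gapdh had 1310 CPM in unbound 1 and between 1943 and 2058 CPM in the others. Hpgd had 8.66 CPM in unbound 2 and between 5.48 and 5.86 CPM in the others.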

How the results depend on the processing

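Of the 24 carriers past the threshold, 10 (7 higher and 3 lower) kept direction and call under all of the 19 alternatives that tested them. Among these were Slc2a4, Slc16a4, Slc16a9, Slc16a12, Slc22a17, Slc27a2, Slc27a4, Slc29a3 and Slco2b1. None of the 24 changed direction under any alternative. Leaving out 1 library at a time gave 15 to 25 carriers past the threshold, 6 to 14 of them lower. Over all genes this gave 4547 to 7682 in total and 1751 to 3632 lower, and for the partner lists 9 to 19 lower. Within index ACAGTG (2 IP and 2 unbound libraries) there were 15 carriers, 6 of them lower, 3840 genes (2190 higher, 1650 lower) and 10 lower partner genes. Index GTGAAA holds 1 IP and 2 unbound libraries, with the spread of the single IP library taken to be that of unbound. Numbers past the threshold within it are therefore not compared. With at least 5 CPM required in 3 libraries, 7 carriers were higher, against 11 in the main fit, since scarcer ones were no longer tested. Of all genes, 2994 were higher with this filter, against 3622 in the main fit. Slc27a1 had -0.036 within index ACAGTG and Slco3a1 -0.11 within index GTGAAA, both not past the threshold. Apart from the filter, the cause was not tested.

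Deviations from the group means correlated at -0.03, 0.04 and 0.16 between the IP and unbound libraries numbered 1, 2 and 4. IP 2 and IP 4 were closest to the unbound library of their own number, but IP 1 was closest to unbound 2. So few libraries cannot decide whether the number marks a pairing, and the main test used no block. With the replicate number as a block, without unbound 3, 23 carriers passed, 11 higher and 12 lower, of 5683 genes, and Slc29a4 did not (adjusted p = 0.111). The spread between libraries was beyond counting error (chi-square per degree of freedom 77.7 to 1206), so counting intervals understate the error of scarce carriers such as Slco6c1.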

Other observations

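The 3 IP libraries were not alike for the lower carriers. Of the 13 lower carriers, 10 were higher in IP 4 than in both IP 1 and IP 2, and 62.0% of all lower genes were. Of the 11 higher carriers, 4 were lower in IP 4 than in both others, against 59.8% of all higher genes, and 5 were higher in IP 4 than in both others (45.5%, against 22.2% of all higher genes). The summed neuron markers were 7070 CPM in IP 4 against 3232 and 3485 in IP 1 and IP 2. Slc2a3 was an exception in part, with IP 2 and IP 4 close together at 37.7 and 42.3 CPM and IP 1 at 19.2. Slc27a4 was the lower carrier with its lowest IP value in IP 4.

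Slc5a9, which did not pass the filter on low counts, passed the threshold as higher in IP when no filter was used (log2 fold change 5.93, adjusted p = 0.0242) and without IP 2 (adjusted p = 0.0185). Of its 142 counts in IP, 127 came from IP 4. IP 4 is the only IP library within index GTGAAA, where the log2 fold change was 6.42. Slc16a11, not past the threshold over all libraries, passed as lower with DESeq2 (adjusted p = 0.0389) and with the index sequence as a covariate (adjusted p = 0.0371).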
